A study of Caenorhabditis elegans with 4 samples.

Results

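Altogether 5 miRNA hairpins with known neuronal expression in *C. elegans*, cel-mir-124, cel-lsy-6, cel-mir-234, cel-mir-790 and cel-mir-791, were followed through 4 small RNA libraries. They were taken by name from the count data and make up 5 of the 250 hairpins and 10 of the 434 mature strand names listed there, or 15 of 697 rows. Each hairpin yields a 5p and a 3p mature strand. Of the 10 strands, 3 had reads in all 4 libraries (lsy-6-3p, miR-790-3p and miR-791-5p), 4 had reads in some, and 3 had none (both strands of mir-234, and miR-124-3p).

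Each library came from a pool of whole hermaphrodites at day 0 of adulthood, and there was 1 library per strain. WT was N2 Bristol, and *glp-1(e2144)* was strain CF1903, which lacks a germline; both were kept at 25 °C. ALG-1/OE was strain CT20, which carries the integrated multicopy transgene zaIs5, a GFP-tagged *alg-1* driven by the *alg-1* promoter, with the marker rol-6(su1006). Its control, ctrl, was strain PE255, in which feIs5 on chromosome X expresses luciferase::GFP from the *sur-5* promoter. feIs5 holds rol-6(su1006) as well, and ALG-1/OE and ctrl were both kept at 20 °C. Strain and temperature cannot be told apart between the pairs. The WT library held 211140 mature miRNA reads, and those of ctrl, ALG-1/OE and *glp-1(e2144)* held 175048, 238172 and 536907. With 1 library per strain there is no replicate check, and every interval given is a 95% Clopper-Pearson interval that covers counting error only. Where a count is 0, the limit given is that of 3 reads.

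miRNAs guide Argonaute proteins such as ALG-1 to complementary sites in mRNAs. One strand of each duplex, the guide, is usually kept, and the other is mostly degraded. miR-124 is a neuronal miRNA shared by worms, flies and vertebrates, and in *C. elegans* it is made in ciliated sensory neurons. lsy-6 acts in the left of the paired ASE taste neurons, ASEL, where it represses the homeobox gene *cog-1* and so sets the left-right difference of these neurons. mir-234 is the worm relative of the vertebrate neuronal miR-137. mir-791 is made in CO2-sensing neurons, and its guide shares a seed, the stretch that pairs with targets, with that of mir-790.

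All 5 hairpins lie at coordinates identical to the WBcel235 annotation. mir-124 lies on chromosome IV (11871738 to 11871833, plus strand) within an intron of *trpa-1*, a TRP channel gene on the same strand, and overlaps the noncoding gene *C29E6.8* on the opposite strand. mir-234 lies on chromosome II (14466263 to 14466358, minus strand) and overlaps the noncoding gene *C13B4.6* on the opposite strand. lsy-6 (chromosome V, 10647232 to 10647304, plus strand) and mir-791 (chromosome X, 5809349 to 5809433, plus strand) overlap no other annotated gene. mir-790 lies on chromosome IV (5566422 to 5566491, plus strand), and its 5p strand overlaps the piRNA gene *21ur-1430*, which is 21 bases long and on the same strand. Whether counting used the read strand is not given in the sources used here, so reads of overlapping genes cannot be assigned with certainty. This touches mir-124, mir-234 and miR-790-5p, which together had 4 reads.

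The mir-790 and mir-791 hairpins each had a close miRNA neighbour on the same strand. The hairpin of mir-228 lies 4300 bases from that of mir-790, and it had 9825 reads in WT, 30365 in *glp-1(e2144)*, 10983 in ctrl and 15901 in ALG-1/OE. The mir-790 hairpin had 11, 23, 4 and 7 reads in the same libraries. The hairpin of mir-230 lies 5360 bases from that of mir-791, and it had 141, 548, 205 and 430 reads, where the mir-791 hairpin had 2, 14, 4 and 8. For lsy-6, mir-124 and mir-234 the nearest hairpin was at least 66634 bases away. As counted, proximity thus did not come with similar read numbers at either locus. The strands with the shared seed, miR-790-5p and miR-791-3p, had 2 and 5 reads in all. The part of read mapping and counting in these low numbers was not tested.

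All strands of the 5 hairpins together took 21 reads in WT, 53 in *glp-1(e2144)*, 17 in ctrl and 38 in ALG-1/OE. Scaled to 1000000 mature miRNA reads per library (RPM), this was 99.5 in WT (61.6 to 152), 98.7 in *glp-1(e2144)* (73.9 to 129), 97.1 in ctrl (56.6 to 155) and 159.5 in ALG-1/OE (113 to 219). The intervals of all 4 libraries overlap. In whole worms, fewer cells of a type and less miRNA per cell cannot be told apart. Reads of each hairpin equalled the sum of its mature strands in every library, so no reads were counted outside the annotated strands.

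**Figure D1:**
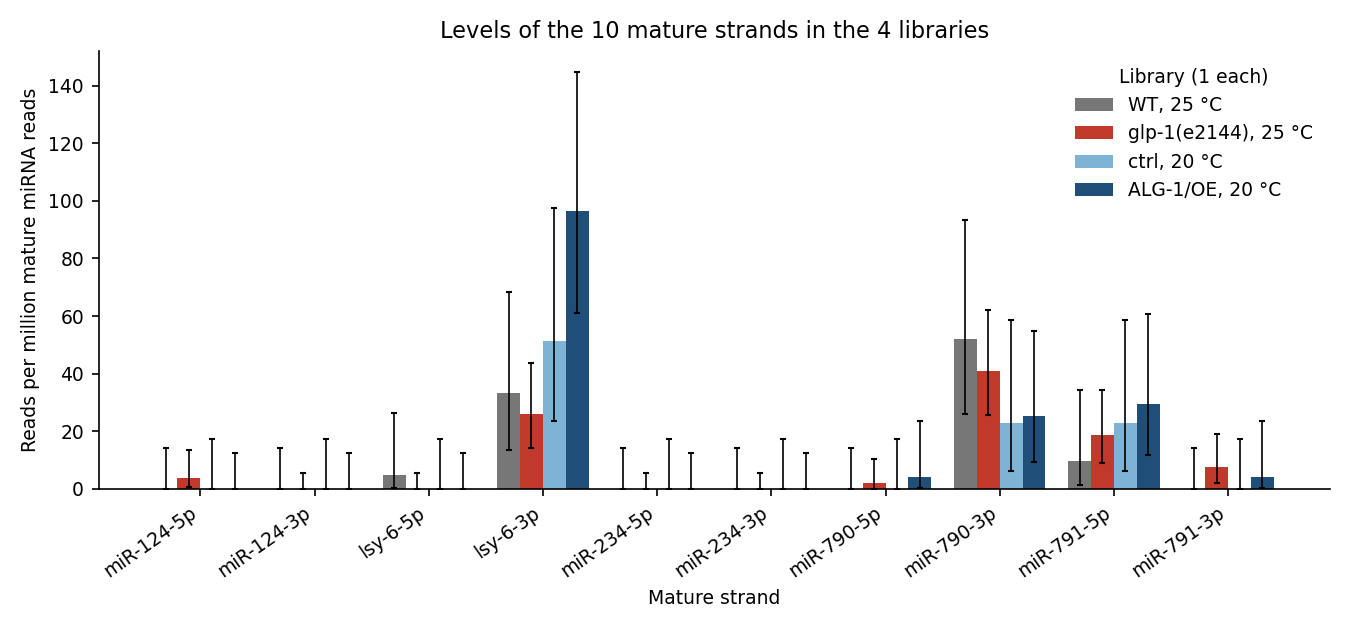
RPM (vertical axis) of the 10 mature strands (horizontal axis) in the 4 libraries, 1 bar per library with its 95% Clopper-Pearson interval or, at 0, the limit of 3 reads. lsy-6-3p reaches 96.6 in ALG-1/OE, miR-790-3p and miR-791-5p lie between 9.47 and 52.1, and both strands of mir-234 and miR-124-3p are at 0 in all 4 libraries.

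lsy-6-3p, the guide strand of lsy-6, had 53 reads over the 4 libraries. It was the highest of the 10 strands in ctrl and ALG-1/OE, whereas miR-790-3p was higher in WT and *glp-1(e2144)*. It had 7 reads in WT, 14 in *glp-1(e2144)*, 9 in ctrl and 23 in ALG-1/OE. These were 33.2 RPM in WT (13.3 to 68.3), 26.1 in *glp-1(e2144)* (14.3 to 43.7), 51.4 in ctrl (23.5 to 97.6) and 96.6 in ALG-1/OE (61.2 to 145). Its place by reads among all mature strands was 155 of 231 with reads in WT, 138 of 230 in *glp-1(e2144)*, 135 of 215 in ctrl and 118 of 232 in ALG-1/OE. The level thus ran in the order *glp-1(e2144)*, WT, ctrl, ALG-1/OE, and none of these neighbours differed beyond counting error. ALG-1/OE was above both libraries grown at 25 °C, with a ratio of 2.91 to WT (interval on the log2 scale 0.28 to 3.01) and of 3.70 to *glp-1(e2144)* (0.87 to 2.96). The other strand, lsy-6-5p, had 1 read in WT and 0 elsewhere.

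miR-790-3p had 43 reads in all, with 11 in WT, 22 in *glp-1(e2144)*, 4 in ctrl and 6 in ALG-1/OE. It stood at 52.1 RPM in WT (26.0 to 93.2), 41.0 in *glp-1(e2144)* (25.7 to 62.0), 22.9 in ctrl (6.23 to 58.5) and 25.2 in ALG-1/OE (9.25 to 54.8). The order was therefore ctrl, ALG-1/OE, *glp-1(e2144)*, WT, but each of the 6 pairs of libraries had an interval of the ratio that included equality. miR-790-5p, the strand that carries the seed shared with mir-791, had 1 read in ALG-1/OE, 1 in *glp-1(e2144)* and 0 in WT and ctrl.

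miR-791-5p had 23 reads in all, with 2 in WT, 10 in *glp-1(e2144)*, 4 in ctrl and 7 in ALG-1/OE. Its levels were 9.47 RPM in WT (1.15 to 34.2), 18.6 in *glp-1(e2144)* (8.93 to 34.3), 22.9 in ctrl (6.23 to 58.5) and 29.4 in ALG-1/OE (11.8 to 60.6), in that rising order. Again, each of the 6 intervals between libraries included equality. miR-791-3p, which carries the shared seed, had 1 read in ALG-1/OE, 4 in *glp-1(e2144)* and 0 in both control libraries, WT and ctrl. Over the 18 pairs of libraries for the 3 strands, 2 intervals excluded equality, both those of lsy-6-3p given above. Over all 185 strands with reads in every library, 47.4% of such intervals excluded equality, and 16.6% where a strand had under 50 reads in the pair, as the 3 strands did. Among strands with under 50 reads, the interval lay above equality for 5.33% in ALG-1/OE over WT and for 29% in ALG-1/OE over *glp-1(e2144)*.

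mir-124 and mir-234 were at or near 0. In *glp-1(e2144)*, miR-124-5p had 2 reads, and it had 0 in the other 3 libraries, and miR-124-3p, the conserved guide, had 0 in all 4. Both strands of mir-234 also had 0 reads in all 4 libraries. A count of 0 allows up to 3 reads, or 14.2 RPM in WT, 5.59 in *glp-1(e2144)*, 17.1 in ctrl and 12.6 in ALG-1/OE. The levels of both miRNAs could therefore not be compared between strains. The limit holds for reads as counted. Guides of several hairpins, miR-124-3p among them, had few or no reads where their partner strands had some, and the part of read mapping and counting in the zeros was not tested. Strands without reads were common in these data, with 161 of the 434 strand names (37.1%) and 79 of the 250 hairpins (31.6%) at 0 in all 4 libraries, against 3 of the 10 strands and 1 of the 5 hairpins described here.

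Strands that mark other tissues were set beside these levels. miR-228-5p, abundant in glia, had 46339 RPM in WT, 56442 in *glp-1(e2144)*, 62686 in ctrl and 66641 in ALG-1/OE. miR-60-3p, of the intestine, had 2823 in WT, 3729 in *glp-1(e2144)*, 2542 in ctrl and 2099 in ALG-1/OE. The muscle miRNA miR-1-3p was also low, with 0 reads in WT, 2 in *glp-1(e2144)*, 1 in ctrl and 5 in ALG-1/OE. Its partner strand miR-1-5p took 54 of the 62 reads of the hairpin, so miR-1-3p as counted gives no scale for muscle. Strands of the embryonic and germline mir-35 to mir-42 family took 11.3% of mature reads in WT, 0.0756% in *glp-1(e2144)*, 6.51% in ctrl and 8.78% in ALG-1/OE. These shares move with strain and alter the total to which RPM values refer.

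**Figure D2:**
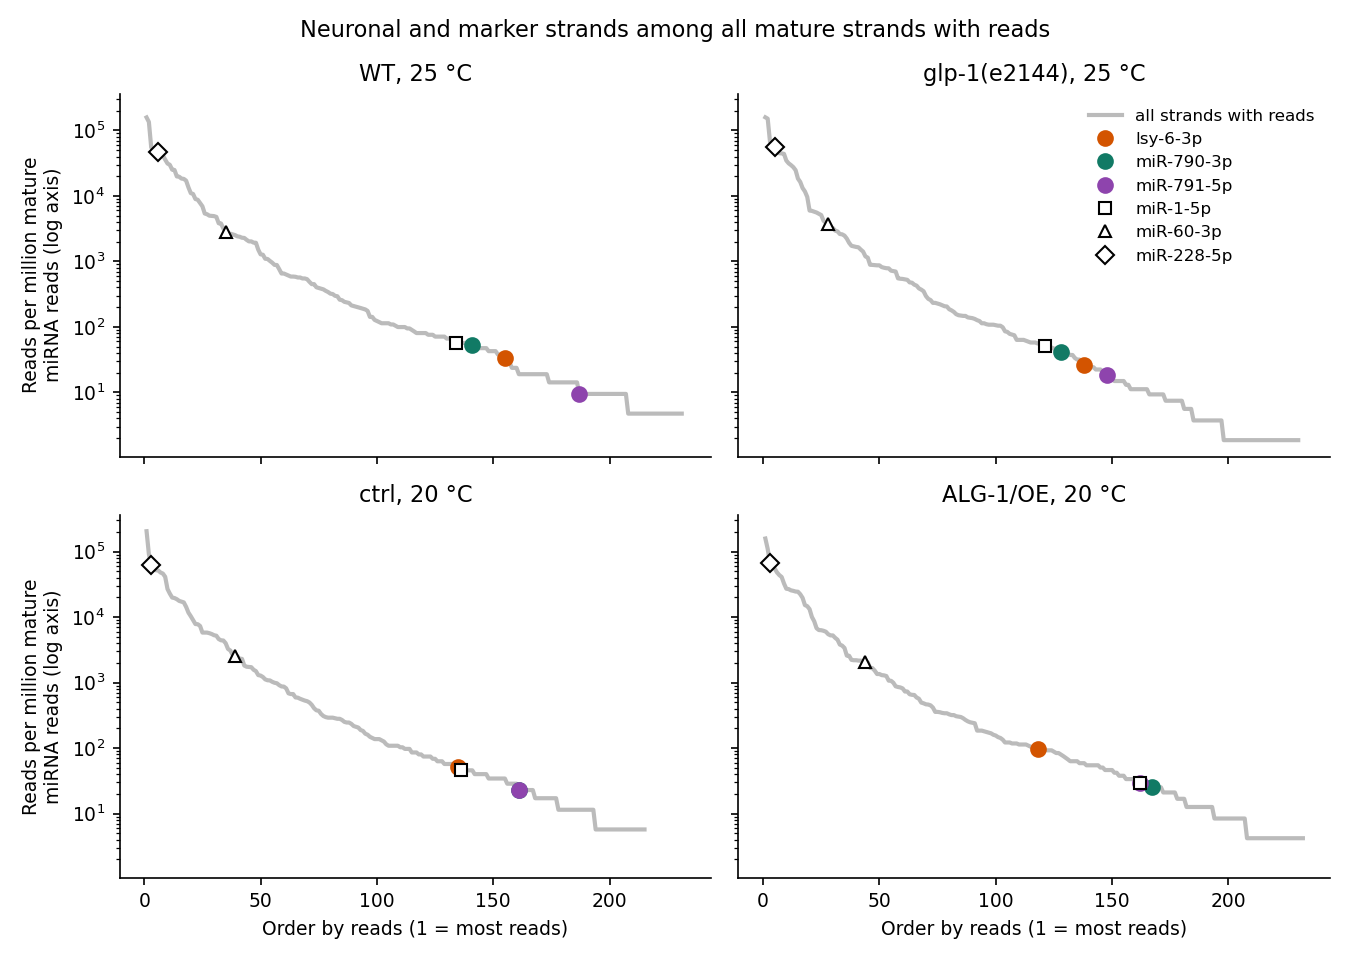
RPM (vertical axis, log scale) against the place of each mature strand by reads (horizontal axis), 1 panel per library. The grey line is all strands with reads, and open symbols mark miR-1-5p (muscle), miR-60-3p (intestine) and miR-228-5p (glia, places 3 to 6). miR-1-5p is drawn in place of its partner miR-1-3p, the guide and planned muscle marker, which had 0 reads in WT. Coloured circles are lsy-6-3p, miR-790-3p and miR-791-5p, which lie between place 118 and place 187 (in ctrl, miR-790-3p lies beneath miR-791-5p, both at 22.9).

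The split of reads between the strands of a hairpin does not depend on how libraries are scaled. In mir-791, the 5p strand took 2 of 2 reads in WT, 10 of 14 in *glp-1(e2144)*, 4 of 4 in ctrl and 7 of 8 in ALG-1/OE, or 82.1% of the 28 reads in all libraries (63.1% to 93.9%). In mir-790, the 5p strand took 2 of 45 reads, or 4.44% (0.54% to 15.1%), and in lsy-6 it took 1 of 54, or 1.85% (0.047% to 9.89%). The intervals of the single libraries overlapped for each of the 3 hairpins, so no difference in strand use between strains was detectable at this depth. For lsy-6, the strand with the most reads was the known guide. For mir-790 and mir-791 it was the partner of the strand with the shared seed, and the 2 reads of mir-124 also came from the partner of its guide. In the mir-1 hairpin, whose guide is the 3p strand, the 5p strand took 54 of 62 reads, or 87.1% (76.1% to 94.3%). In mir-60, whose guide is the 3p strand, the 5p strand took 1.96% of reads, and in mir-228, whose guide is the 5p strand, it took 99.8%, so the pattern was not general. Over the 118 hairpin names with both strands listed and at least 10 reads in total, the less abundant strand had a median share of 2.44%.

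To ask whether the strands differ between the strains of each pair, fold changes were taken between libraries of the same temperature, scaled by the total reads of each library. A strand was measured where both libraries of a pair had reads, and called upregulated above a log2 fold change of 1 or downregulated below -1. Of the 10 strands, 3 were measured in each comparison. In *glp-1(e2144)* against WT, 1 of the 3 was above 1, where 46.2% of the 199 mature strands measured lay above it, and 0 were below -1, where 15.6% of all strands lay. In ALG-1/OE against ctrl, 1 of the 3 was above 1, against 26.5% of 204 strands, and 0 were below -1, against 2.45%. Among strands with fewer than 50 reads in the pair, as these have, the share above 1 was 40.4% for ALG-1/OE and 26.6% for *glp-1(e2144)*. Counts of 3 strands cannot be set apart from these shares. At a lower cut-off of 1.5-fold, all 3 measured strands passed in each comparison, where 64.3% of all strands passed in *glp-1(e2144)* and 52.5% did so in ALG-1/OE. Several passed only narrowly, with lsy-6-3p and miR-790-3p at 1.503-fold in *glp-1(e2144)* and miR-790-3p at 1.514-fold in ALG-1/OE. Scaled by mature miRNA reads, these were at 0.787, 0.787 and 1.10-fold.

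In *glp-1(e2144)*, the strand above 1 was miR-791-5p. Its 10 reads against 2 in WT gave a log2 fold change of 1.91, with an interval from -0.32 to 5.14 that included 0. lsy-6-3p and miR-790-3p doubled in raw reads, from 7 to 14 and from 11 to 22, and so shared a log2 fold change of 0.59. Their intervals were -0.82 to 2.14 for lsy-6-3p and -0.52 to 1.78 for miR-790-3p. Both values lay 0.33 below the median of all measured strands, which was 0.92, and miR-791-5p lay 0.99 above it. Scaling by mature miRNA reads lowers every value of this comparison by 0.93. Under it, lsy-6-3p and miR-790-3p were at -0.35 and miR-791-5p, at 0.98, was no longer above the cut-off. The direction for lsy-6-3p and miR-790-3p is thus set by the scaling. miR-791-3p had 4 reads against 0 in WT, which against a limit of 3 reads in WT is at least 1.00-fold, so no change could be read from it.

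In ALG-1/OE, the strand above 1 was lsy-6-3p. Its 23 reads against 9 in ctrl gave a log2 fold change of 1.37 (0.20 to 2.66), which excluded 0 but reached below the cut-off. It lay 0.77 above the median of all measured strands, which was 0.60, and 23 of the 204 strands had a larger value. miR-791-5p, with 7 reads against 4, had a log2 fold change of 0.82 (-1.16 to 3.04), and miR-790-3p, with 6 against 4, had 0.60 (-1.48 to 2.87). Scaling by mature miRNA reads lowers every value here by 0.46. It gave 0.91 for lsy-6-3p (-0.26 to 2.21), 0.36 for miR-791-5p and 0.14 for miR-790-3p, so lsy-6-3p fell below the cut-off and its interval then included 0. The strand above the cut-off was a different one in each comparison, and no test of that difference is possible with 1 library per strain.

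**Figure D3:**
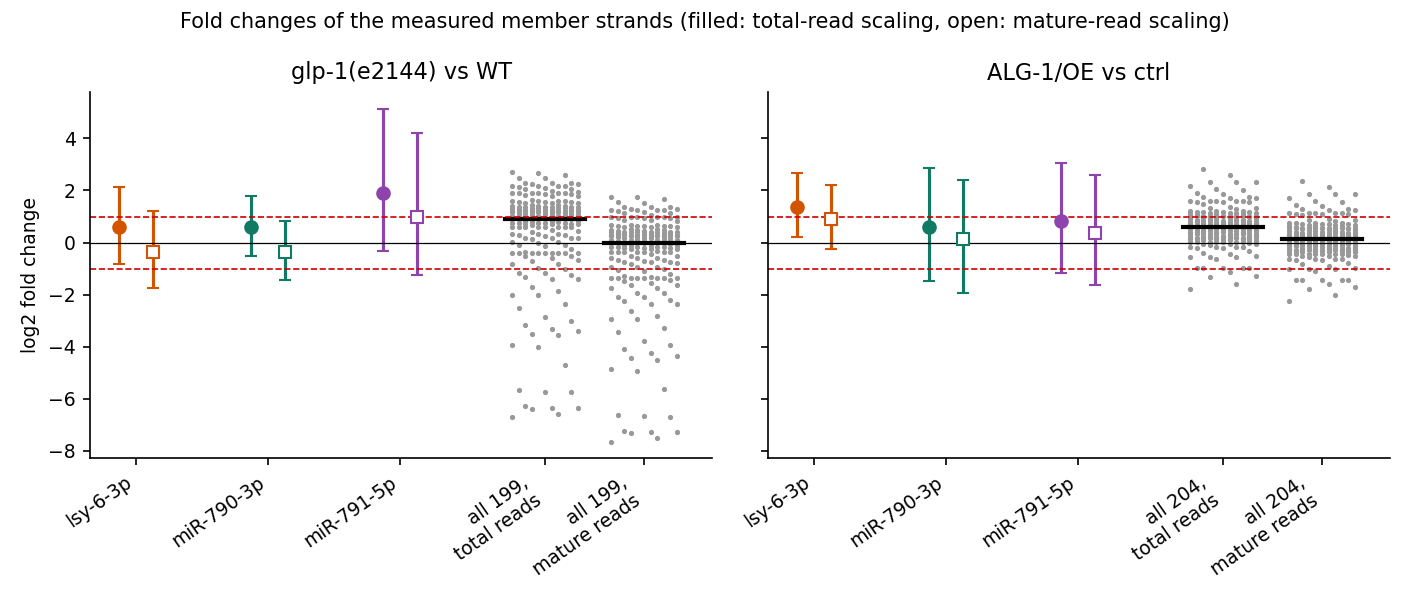
Log2 fold changes (vertical axis) of the 3 measured neuronal strands in both comparisons, with 95% Clopper-Pearson intervals, scaled by total reads (filled circles) or mature miRNA reads (open squares), beside all measured strands (grey dots, median as a black bar) and the cut-offs of 1 and -1 (dashed). Of the 6 filled intervals, only that of lsy-6-3p in ALG-1/OE lies above 0, and no open one does.

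Levels were also set side by side by growth temperature, a grouping chosen after the values were seen. lsy-6-3p was at 51.4 and 96.6 RPM in the libraries at 20 °C and at 33.2 and 26.1 in those at 25 °C. miR-791-5p was likewise higher in both libraries at 20 °C, with 22.9 and 29.4 against 9.47 and 18.6. miR-790-3p was lower in both, with 22.9 and 25.2 against 52.1 and 41.0. The point values at 20 °C and 25 °C did not overlap for any of the 3 strands. Of the 185 strands with reads in all 4 libraries, 22.7% were higher and 16.2% lower at 20 °C in this way, so each of these patterns was shared by many other strands. Between a library at 20 °C and one at 25 °C, only lsy-6-3p in ALG-1/OE differed beyond counting error. All other such intervals of the 3 strands included equality. Strain and temperature cannot be told apart here.

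The opposite order of lsy-6-3p and miR-790-3p can be read within each library, without any scaling. This pair was picked for that order after the values were seen, so a shift in its share was built in. lsy-6-3p took 7 of the 18 reads of both strands in WT and 14 of 36 in *glp-1(e2144)*, or 38.9% in each (17.3% to 64.3% and 23.1% to 56.5%). It took 9 of 13 in ctrl, or 69.2% (38.6% to 90.9%), and 23 of 29 in ALG-1/OE, or 79.3% (60.3% to 92.0%). The intervals of *glp-1(e2144)* and ALG-1/OE did not overlap, whereas those of WT and ctrl, the control libraries, did. The share of other strand pairs whose intervals part in the same way was not computed, so this gap cannot be called particular to the pair. Within each temperature the strains did not differ beyond counting error. These libraries differ in temperature, transgenes and *glp-1* genotype, which cannot be told apart.

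**Figure D4:**
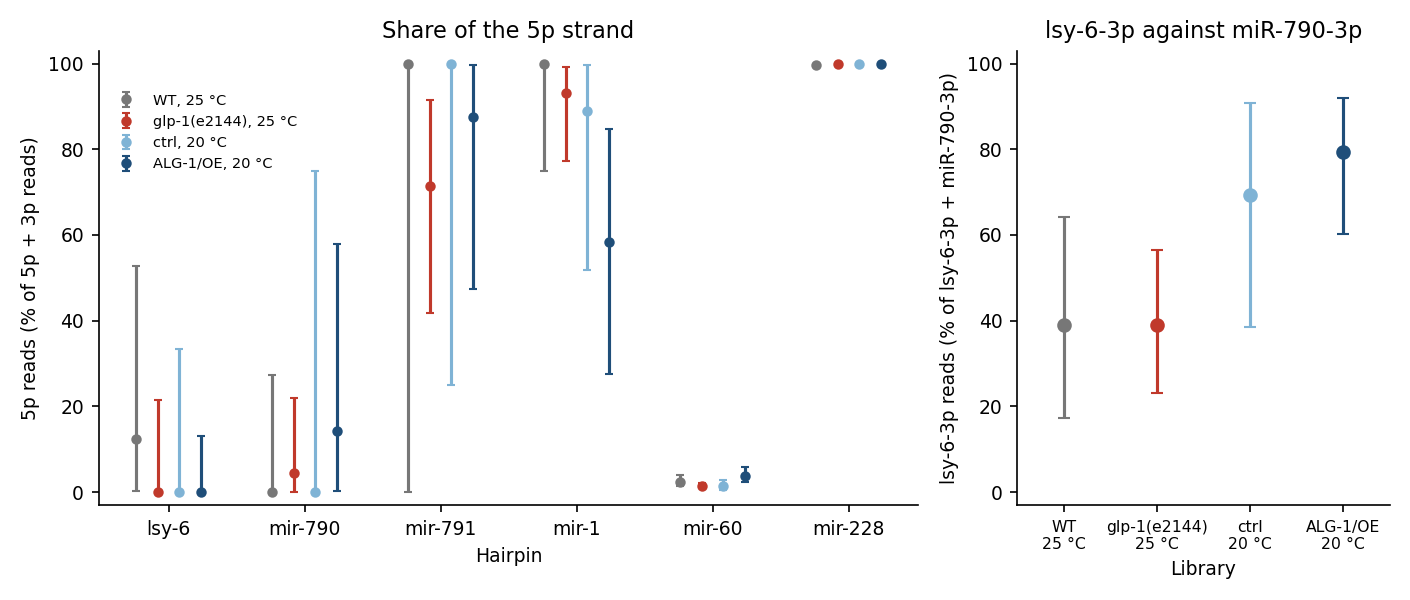
Left, reads of the 5p strand as a percentage of both strands for 6 hairpins, and right, lsy-6-3p reads as a percentage of lsy-6-3p and miR-790-3p reads, with points for single libraries and their 95% Clopper-Pearson intervals (limit of 3 reads where a strand is at 0). The 5p share is low for lsy-6 and mir-790 and high for mir-791 and mir-1. The lsy-6-3p share is 38.9% in both libraries at 25 °C and, at 20 °C, 69.2% in ctrl and 79.3% in ALG-1/OE. The intervals of WT and ctrl overlap, the pair was picked after the values were seen, and strain and temperature cannot be told apart.

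lsy-6-3p was the only one of the 10 strands with at least 50 reads in total, and its profile over the 4 libraries was compared with those of the 139 other strands that reach this number. Likeness was the Euclidean distance of the log2 RPM, with 0.5 reads added and centred on the mean of the 4 libraries. The nearest was miR-1022-5p (distance 0.32), with 24 reads in WT, 56 in *glp-1(e2144)*, 41 in ctrl and 81 in ALG-1/OE. miR-2209a-3p (0.61) and miR-230-5p (0.66) followed. miR-230-5p, from the hairpin near mir-791, had 587 RPM in WT, 788 in *glp-1(e2144)*, 1085 in ctrl and 1663 in ALG-1/OE. lsy-6-3p itself had 7 reads in WT and 23 in ALG-1/OE, and the counting error of the distances was not computed. The order of these neighbours is therefore uncertain.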

How the data were processed

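Small RNA was sequenced from 1 pooled library per strain. Per the paper's methods, the authors used the Fastx-ToolKit to trim adapters and drop short reads, then mapped to ce10 with Bowtie2. The counting tool is not given in the sources used here. The labels name a SOLiD library kit, whereas the methods name a HiSeq instrument. The deposited values are raw read counts per hairpin and mature strand, without normalization by the authors. The 5 hairpins and the marker and comparison lists were chosen with earlier results of these data known. Where a name has more than 1 row, the row with the most reads was kept.

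The authors normalized by total reads per library, which the count files do not hold. Their ratio, 1.33 for *glp-1(e2144)* to WT and 0.991 for ALG-1/OE to ctrl, was recovered as the median offset between the log2 fold changes in the authors' supplementary lists (138 and 169 miRNAs) and the log2 ratio of counts, and served only as a scaling constant. Alternatives used mature miRNA reads, with and without mir-35 to mir-42, TMM factors (edgeR 4.0.16, R 4.3.3) and median of ratios. Others added 0.5 reads, required at least 10 reads, used a 1.5-fold cut-off or kept every row. No test was run on the conditions. Interval code was tested on simulated counts. The strands named are those of the 5 hairpins, markers of 4 tissues, and the 3 strands nearest in profile to any of the 10 with at least 50 reads. miR-241, miR-1-5p, and the mir-228 and mir-230 hairpins nearest to mir-790 and mir-791, are named outside this rule, miR-241 after its values were seen. Seeds are given as background, and a planned comparison of seed sequences was not run. Python 3.11.15, numpy 2.4.6, scipy 1.17.1, pandas 2.3.3 and matplotlib 3.10.9 were used.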

Additional observations from a re-analysis of the deposited data

How the results depend on the processing

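Few reads set the limits here. The 3 measured strands had between 2 and 23 reads per library, and the other 7 could not be compared. No paired analysis was possible because each group is 1 library. Without replicates, the spread between worms is unknown.

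Each of the 4 scalings within miRNA reads left 0 of the 3 strands above the cut-off in both comparisons. A minimum of 10 reads in both libraries kept only miR-790-3p in *glp-1(e2144)* and no strand in ALG-1/OE, so its counts of 0 are set by the filter. A cut-off of 1.5-fold gave 3 in each, with 128 of all 199 strands in *glp-1(e2144)* and 107 of 204 in ALG-1/OE. The count below the cut-off was 0 under every alternative, that filter included. The median of the 3 strands in *glp-1(e2144)* against WT, 0.59, was below 0 under each of the 4 scalings within miRNA reads. It was -0.35 with mature miRNA reads, -0.52 when these left out mir-35 to mir-42, -0.39 with TMM factors and -0.34 with median of ratios. lsy-6-3p and miR-790-3p changed sign in the same way. Of the alternative values of single strands, 40 of 41 stayed within the main interval. The exception was miR-790-3p in *glp-1(e2144)*, just outside it without mir-35 to mir-42. These intervals are wide, -0.82 to 2.14 for lsy-6-3p in *glp-1(e2144)*, so lying within them does not show a stable value.

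Over all strands in *glp-1(e2144)*, 92 above and 31 below the cut-off became 19 and 54 with mature miRNA reads, 15 and 57 without mir-35 to mir-42, 19 and 54 with TMM factors, and 20 and 54 with median of ratios, and 12 were below with 10 reads in both libraries. In ALG-1/OE, 54 above and 5 below became 23 and 14, 23 and 11, 14 and 17, and 22 and 15 in the same order. With 10 reads in the higher library they were 35 and 2, with 10 in both 20 and 0, and with the 1.5-fold cut-off 11 were below. Scaling levels to all rows, which count most reads on the hairpin and again on the strand, moved 3 of 36 levels beyond their interval.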

Other observations

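miR-241-5p, a let-7 family strand singled out after its values were seen, had 0 reads in all 4 libraries. Its partner miR-241-3p had 15 in WT, 53 in *glp-1(e2144)*, 19 in ctrl and 14 in ALG-1/OE. Its 5p strand, the guide, thus took 0 of 101 reads of the hairpin, and 0 reads allow a share of up to 2.97%. It shares this feature with miR-1-3p and miR-124-3p, guides with few or no reads whose partner strands had reads.

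These 3 guides, and miR-234-3p, are all annotated as 21 bases long. Of the 56 strands of that length, 33 (58.9%) had 0 reads in all 4 libraries, against 55 of 166 (33.1%) at 22 bases, 36 of 131 (27.5%) at 23 bases and 11 of 44 (25.0%) at 24 bases. Of the 16 strands of 20 bases, 15 had 0 reads. The few longer strands did not continue the fall, with 6 of 10 at 0 for 25 bases and 1 of 3 for 26 bases. lsy-6-3p is 22 bases long, and miR-790-3p and miR-791-5p are 23. miR-790-5p (22 bases) and miR-791-3p (24 bases), both low, fall outside the lengths where strands without reads were most common. Strand length was described after the values were seen, and its part in the low counts was not tested.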
